A study of Mus musculus with 30 samples.

Results

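The excitability of the skeletal muscle fibre membrane is set by a small group of ion channels, and 7 of their genes were followed in the mouse diaphragm. The mice model spinal and bulbar muscular atrophy (SBMA), in which a lengthened glutamine tract of the androgen receptor harms muscle and the motor neurons that serve it. The genes are Clcn1, Scn4a, Kcnj2, Kcnj11, Kcnj3, Kcnn3 and Kcnma1, a list of names chosen with earlier results of these data known. All 7 were found among the 33076 genes of the count table, and all 7 passed the filter on low counts. RNA-seq libraries came from 15 male mice, with 2 pieces of each diaphragm, 30 libraries in all. The perisynaptic piece holds the nerve-muscle junctions, and the extrasynaptic piece was cut away from them. SBMA mice carried the transgene BACfxAR121, written BACfxR121 in the sample labels. Control mice were littermates that carried the same transgene together with HSA-Cre, which makes Cre in skeletal muscle and so rescues that tissue. At 15 weeks there were 4 SBMA and 3 control mice, and at 26 weeks 4 of each, which makes 8 groups by genotype, region and age.

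The resting muscle membrane is held steady by chloride and potassium currents, and the action potential that spreads from the junction along the fibre is carried by sodium current. Loss of the chloride channel or altered gating of the muscle sodium channel gives myotonia or periodic paralysis, and denervated fibres are known for making small-conductance potassium channels that innervated fibres lack. Inward rectifiers pass potassium near the resting potential, and some of them are opened by G proteins or closed by ATP.

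Clcn1 encodes ClC-1, the main chloride channel of the fibre (ENSMUSG00000029862.15, chromosome 6, 42286685 to 42315756, plus strand, GRCm38). Scn4a encodes Nav1.4, the adult muscle sodium channel (ENSMUSG00000001027.7, chromosome 11, 106318592 to 106353288, minus strand). Kcnj2 encodes the inward rectifier Kir2.1 (ENSMUSG00000041695.2, chromosome 11, 111066164 to 111076821, plus strand). Kcnj11 encodes Kir6.2, the pore of the ATP-sensitive channel (ENSMUSG00000096146.2, chromosome 7, 46093953 to 46100764, minus strand). Kcnj3 encodes GIRK1, a G-protein-gated inward rectifier best known from heart and brain (ENSMUSG00000026824.11, chromosome 2, 55435970 to 55598145, plus strand). Kcnn3 encodes the small-conductance calcium-activated channel SK3 (ENSMUSG00000000794.9, chromosome 3, 89520164 to 89675132, plus strand). Kcnma1 encodes the pore of the large-conductance BK channel (ENSMUSG00000063142.15, chromosome 14, 23289431 to 24014491, minus strand).

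Clcn1 and Kcnj3 are the members that differed between SBMA and control muscle in both regions at 26 weeks, in opposite directions, and the 250 bases before their starts are shown for that reason. RefSeq (GRCm38.p6) gave this window for 6 of the 7 genes, Kcnj11 being the exception. The capitals mark every CANNTG, the E-box that myogenic factors bind, on either strand. The Clcn1 window is chr6:42286435-42286684 on the plus strand and the Kcnj3 window is chr2:55435720-55435969 on the plus strand.
Clcn1: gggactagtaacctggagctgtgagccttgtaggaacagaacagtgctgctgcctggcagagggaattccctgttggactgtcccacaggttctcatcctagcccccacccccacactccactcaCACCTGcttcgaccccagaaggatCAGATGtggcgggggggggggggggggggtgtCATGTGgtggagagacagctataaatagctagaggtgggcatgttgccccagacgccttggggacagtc
Kcnj3: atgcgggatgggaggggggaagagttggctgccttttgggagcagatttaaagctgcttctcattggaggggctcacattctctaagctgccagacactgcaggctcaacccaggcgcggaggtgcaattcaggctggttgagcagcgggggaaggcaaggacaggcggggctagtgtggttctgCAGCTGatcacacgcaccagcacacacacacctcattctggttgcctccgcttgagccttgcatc
The Clcn1 window held 3 matches to CANNTG and the Kcnj3 window 1, which was also the only match to CAGCTG in the pair. A CANNTG was present in 66.2% and a CAGCTG, a form of the same motif, in 4271 of the 32851 RefSeq promoter windows of this length. AGAACA, which is part of the androgen response element, was found once in the Clcn1 window and not in that of Kcnj3, against 16.1% of all windows. Kcnj2 had 2 matches to CANNTG, of which 1 was CAGCTG, and none of these 3 motifs was found in the windows of Scn4a, Kcnn3 and Kcnma1. These are matches of letters and say nothing of binding.

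Total counts per library ranged from 16280873 to 34694446. Long transcripts did not stay level between libraries at 26 weeks. Over the 730 genes whose merged exons exceed 12000 bases, the median log2 deviation from the group mean was -0.39 in the perisynaptic and -0.23 in the extrasynaptic library of control replicate 2. In the perisynaptic libraries of SBMA replicates 1 and 2 it was -0.20 and -0.14, while in the perisynaptic libraries of replicates 3 and 4 of both genotypes it lay between 0.17 and 0.22. The 770 genes under 1500 bases deviated the other way, by 0.40 in the perisynaptic library of control replicate 2. Replicates 1 and 2 of both genotypes carry the animal numbers 79 to 82, and replicates 3 and 4 the numbers 95 to 98. Each result at 26 weeks was therefore also computed without control replicate 2 and within each run of numbers, 2 SBMA against 2 control mice. The 15-week libraries of the region stayed in these fits and shared in the estimate of the spread. The 15-week mice have other numbers, so age and run of animal numbers cannot be told apart. Long transcripts varied among the 15-week libraries too, over a narrower range. Their median deviation ran from -0.12 (control extrasynaptic replicate 3) to 0.11 (control perisynaptic replicate 2).

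Every adjusted p is from edgeR's quasi-likelihood test, two-sided, with Benjamini-Hochberg adjustment over all genes tested, and a gene is called where it is under 0.05. Levels are CPM, gene counts scaled to the effective library size, given as mean ± SD, and log2 differences carry ± SE of the fit. Percent falls and fold rises are those of the fitted log2 difference and can differ slightly from the ratio of the means. TMM scaling places the median gene near 0. Under scaling by total counts alone the median gene lay at 0.24 (perisynaptic) and 0.18 (extrasynaptic) in SBMA minus control at 26 weeks, and at 0.07 and 0.19 at 15 weeks, so all differences are relative to the median gene.

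Per length, Scn4a was the most abundant of the 7. Its mean over all libraries was 69.2 RPKM, which is CPM per kilobase of merged exons, against 20.9 for Kcnj11, 20.3 for Clcn1 and 19.6 for Kcnj2. Kcnma1 (2.41 RPKM), Kcnn3 (2.00 RPKM) and Kcnj3 (1.30 RPKM) were scarce. The 5 fibre markers Acta1, Ckm, Mb, Des and Ttn summed to between 36119 and 79537 CPM in every library, and the 5 neuron markers in the table stayed under 1 CPM each and summed to at most 0.51 CPM. Between the lowest and the highest group mean, Kcnj3 spanned 13.4-fold, while the other 6 members spanned 1.34-fold to 1.53-fold.

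**Figure D1:**
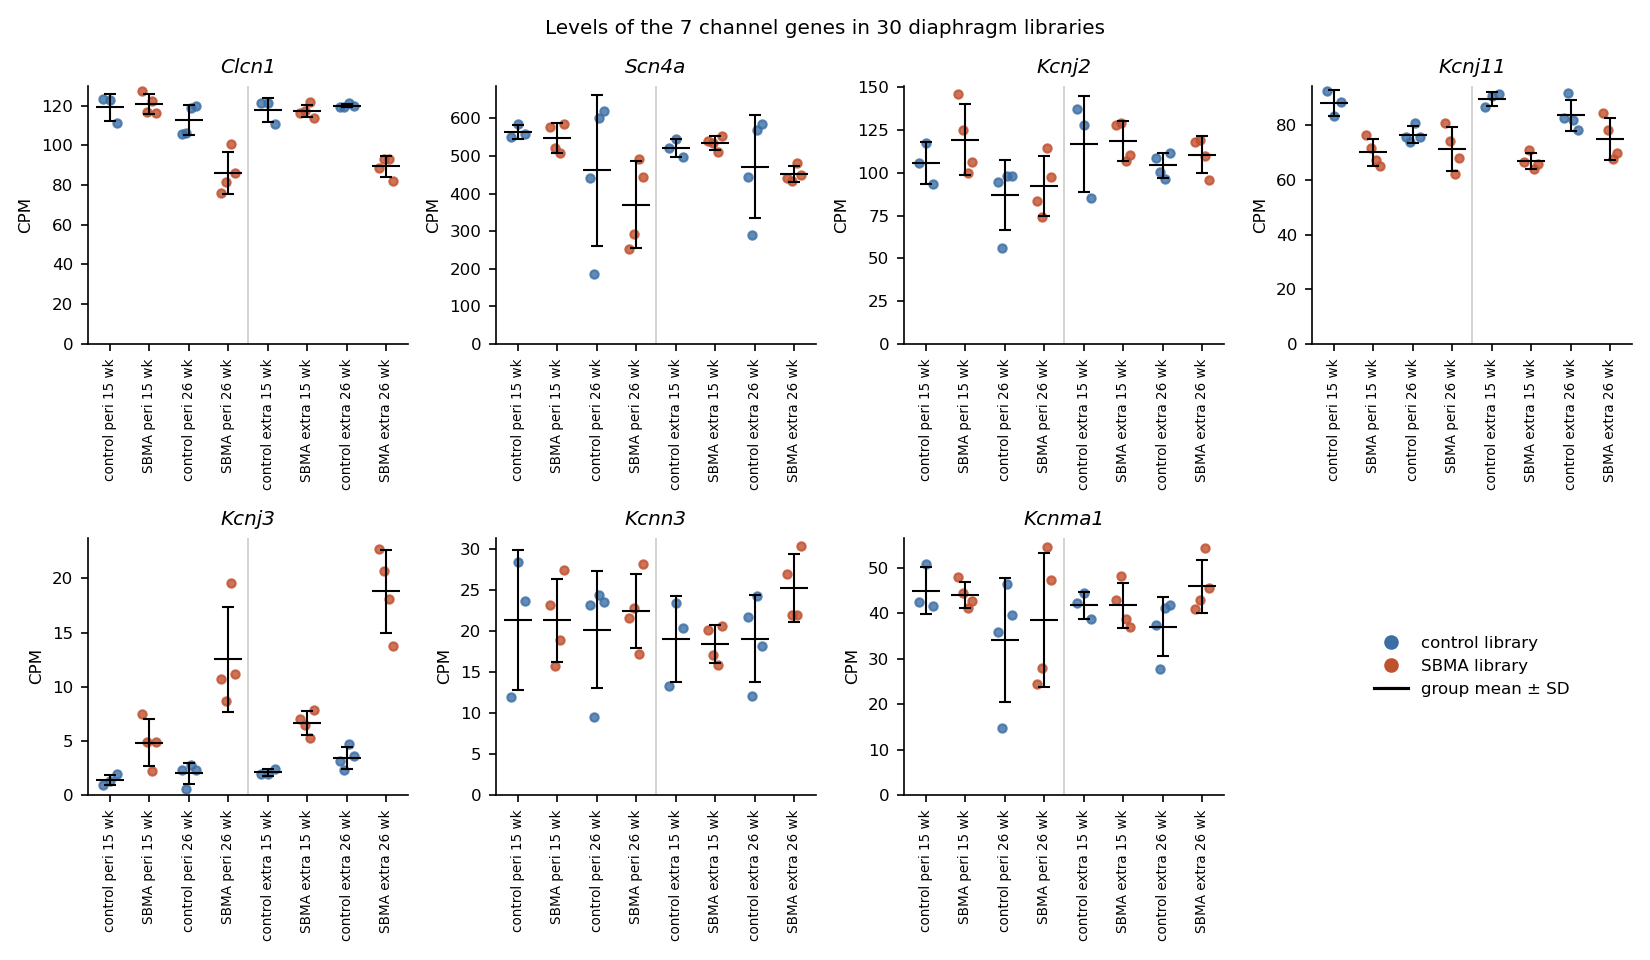
Level of each channel gene in CPM (y axis, from 0) in the 8 groups (x axis; peri and extra are the 2 regions), with a point per library and a bar for the group mean ± SD. Clcn1 is lower in SBMA libraries at 26 weeks (76.0 to 100.7 CPM in perisynaptic muscle), Kcnj3 is higher in SBMA libraries, and control replicate 2 at 26 weeks is the low point for Scn4a, Kcnj2, Kcnn3 and Kcnma1 in perisynaptic muscle.

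Clcn1 fell in SBMA muscle at 26 weeks in both regions and was level at 15 weeks. In extrasynaptic muscle at 26 weeks the control libraries held 119.5, 119.6, 121.2 and 119.8 CPM and the SBMA libraries 88.9, 93.4, 93.4 and 82.2 CPM. The groups did not overlap, and the fitted level fell by 25.5% (log2 difference -0.42 ± 0.06, adjusted p = 6.1e-05). Control and SBMA means were 120.0 ± 0.81 and 89.5 ± 5.28 CPM (n = 4 each). In perisynaptic muscle the control libraries held 105.8, 106.4, 119.05 and 119.8 CPM and the SBMA libraries 76.0, 81.4, 100.7 and 86.2 CPM. These groups did not overlap either, and the fitted level fell by 23.1% (log2 difference -0.38 ± 0.10, adjusted p = 0.0158). Control and SBMA means were here 113 ± 7.7 and 86.1 ± 10.6 CPM. The perisynaptic call was lost in 5 of 17 alternatives, among them total-count scaling (-0.13, adjusted p = 0.296), leaving out SBMA replicate 1 (-0.32, adjusted p = 0.0541) and animals 79 to 82 alone (-0.42, adjusted p = 0.0545). The extrasynaptic call held under all 17 alternatives, with differences from -0.46 to -0.21.

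At 15 weeks Clcn1 lay between 111.1 and 127.4 CPM in all 14 libraries, with overlapping groups. The log2 difference was 0.01 ± 0.10 in perisynaptic and -0.01 ± 0.06 in extrasynaptic muscle, and neither was called. In extrasynaptic muscle the difference between the ages was itself called (genotype by age -0.41 ± 0.08, adjusted p = 0.0218), and it was lost in 4 of 21 alternatives, among them leaving out SBMA replicate 1 of either age (adjusted p = 0.0557 and 0.0509). In perisynaptic muscle a value of much the same size was not (-0.39 ± 0.14, adjusted p = 0.379). Ordered by mean, the 2 SBMA groups of 26 weeks stood lowest (86.1 and 89.5 CPM) and the other 6 groups lay between 113 and 121 CPM. The only neighbours in that order whose libraries did not overlap were SBMA extrasynaptic and control perisynaptic muscle at 26 weeks.

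Transcripts of fast fibres were lower in the same 26-week samples as Clcn1. The 8 fast-fibre markers (Myh4, Myh1, Myh2, Pvalb, Atp2a1, Actn3, Mylpf and Tnnt3) were all called lower in SBMA at 26 weeks in both regions. Of all genes, 5.97% were called lower in perisynaptic and 16.1% in extrasynaptic muscle. The summed level of the 8 markers in extrasynaptic muscle was 72426 to 82525 CPM in control and 31607 to 35898 CPM in SBMA libraries. Lower sums were not confined to the fast-fibre list. In the same libraries 7 slow-fibre markers summed to 3971 to 6259 CPM in control and 2971 to 4334 CPM in SBMA, with overlap. The 5 fibre markers given above summed to 67699 to 70404 CPM in control and 38070 to 42968 CPM in SBMA. At 15 weeks, where Clcn1 was level, 5 of the 8 fast-fibre markers were already called lower in extrasynaptic muscle, against 0.67% of all genes. The sums of the 8 fast-fibre markers were 81443 to 86806 CPM in control and 47804 to 58307 CPM in SBMA libraries. Their part in the Clcn1 result was not tested. In bulk tissue, fewer fibres of a type and less RNA per fibre cannot be told apart.

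Kcnj3 was the member with the largest difference, a scarce transcript in control muscle that was higher in SBMA muscle in both regions at 26 weeks and in extrasynaptic muscle at 15 weeks. In extrasynaptic muscle at 26 weeks it stood at 3.15, 2.31, 4.74 and 3.60 CPM in control and 22.7, 20.7, 18.1 and 13.8 CPM in SBMA libraries. The rise was 5.44-fold (3.45 ± 1.01 to 18.8 ± 3.83 CPM, n = 4 each; log2 difference 2.44 ± 0.20, adjusted p = 6.4e-07). In perisynaptic muscle it stood at 2.34, 0.61, 2.79 and 2.30 CPM in control and 10.7, 8.71, 19.6 and 11.1 CPM in SBMA libraries. Here the rise was 6.19-fold (log2 difference 2.63 ± 0.40, adjusted p = 0.00044). Neither pair of groups overlapped. Both calls held without control replicate 2 (2.30 and 2.35), within each run of animal numbers (1.95 to 2.99), and under the other alternatives.

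At 15 weeks the control libraries of extrasynaptic muscle held 1.91, 1.92 and 2.45 CPM of Kcnj3 and the SBMA libraries 6.996, 6.48, 5.30 and 7.89 CPM. This was a 3.18-fold rise (log2 difference 1.67 ± 0.24, adjusted p = 0.0021), and the groups did not overlap. The call held in 13 of 14 alternatives and missed the threshold in the other (adjusted p = 0.0512). The perisynaptic libraries of this age did not overlap either, with 0.99, 1.31 and 1.93 CPM in control and 7.46, 4.87, 2.21 and 4.89 CPM in SBMA. That difference was not called by edgeR (1.82 ± 0.47, adjusted p = 0.215), but it was by the Wald test of DESeq2 (1.81, adjusted p = 0.0101) and with no filter on low counts (1.82, adjusted p = 0.0394).

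In order of mean level the 4 control groups came first (1.41 to 3.45 CPM), then SBMA at 15 weeks (4.86 and 6.67 CPM), then SBMA at 26 weeks (12.5 and 18.8 CPM). Only SBMA extrasynaptic muscle at 15 weeks and SBMA perisynaptic muscle at 26 weeks were neighbours without overlap. Between 15 and 26 weeks Kcnj3 rose in SBMA extrasynaptic muscle (1.49 ± 0.19, adjusted p = 0.00017). In SBMA perisynaptic muscle the difference of 1.39 ± 0.37 passed narrowly (adjusted p = 0.0496), and it was lost in 8 of 14 alternatives, among them leaving out any SBMA replicate of 26 weeks. In controls the change with age was 0.72 ± 0.24 in extrasynaptic and 0.58 ± 0.49 in perisynaptic muscle and was not called. The genotype by age difference was not called (0.78 ± 0.31, adjusted p = 0.223 in extrasynaptic muscle).

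GIRK1 forms channels with GIRK2, GIRK3 or GIRK4, which are encoded by Kcnj6, Kcnj9 and Kcnj5. The group means of Kcnj5 ran from 0.07 to 0.15 CPM, and those of Kcnj6 and Kcnj9 did not exceed 0.03 CPM, so none of the 3 passed the filter on low counts. The neuron markers were near 0 in the same libraries. Reads of Kcnj3 ranged from 12 to 602 per library. Gm26794 overlaps 1621 exon bases of Kcnj3 on the opposite strand and had 54 counts over all libraries, against 5372 for Kcnj3.

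Kcnj11 was the only member called lower at 15 weeks. In extrasynaptic muscle the control libraries held 86.9, 90.8 and 91.6 CPM and the SBMA libraries 66.7, 70.9, 63.9 and 66.0 CPM. The groups did not overlap, and the fitted level fell by 25.6% (log2 difference -0.43 ± 0.08, adjusted p = 0.015). This call was lost in 4 of 14 alternatives, among them total-count scaling (-0.23, adjusted p = 0.116), leaving out control replicate 3 (-0.41, adjusted p = 0.0739) and leaving out SBMA replicate 3 (-0.41, adjusted p = 0.0574). In perisynaptic muscle the control libraries held 92.7, 83.3 and 88.6 CPM and the SBMA libraries 76.5, 71.6, 67.3 and 65.2 CPM, again without overlap, but the difference was not called (-0.34 ± 0.10, adjusted p = 0.323). At 26 weeks the groups overlapped in both regions. Control and SBMA means were then 83.8 ± 5.68 and 75.0 ± 7.79 CPM in extrasynaptic muscle (-0.16 ± 0.07, adjusted p = 0.116) and 76.6 ± 3.09 and 71.3 ± 7.94 CPM in perisynaptic muscle (-0.09 ± 0.09, adjusted p = 0.556). Without SBMA replicate 1 the extrasynaptic difference was called (-0.22, adjusted p = 0.0396). The genotype by age difference was not called in extrasynaptic muscle (0.27 ± 0.11, adjusted p = 0.248). No neighbouring groups were free of overlap in the order of means, which ran from 66.9 to 89.8 CPM with the 4 SBMA groups lowest.

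Kcnj2 was not called in any comparison of the genotypes. Its group means ran from 86.8 CPM in control perisynaptic muscle at 26 weeks to 119.5 CPM in SBMA perisynaptic muscle at 15 weeks, and all neighbours in that order overlapped. At 26 weeks the perisynaptic control libraries held 94.8, 56.2, 98.2 and 98.1 CPM and the SBMA libraries 83.4, 74.3, 114 and 97.6 CPM. The difference was 0.10 ± 0.18 (adjusted p = 0.766) and -0.06 without control replicate 2, which is the library at 56.2 CPM. In extrasynaptic muscle it was 0.08 ± 0.12 (adjusted p = 0.637).

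Scn4a was level at 15 weeks and widely spread at 26 weeks. The 14 libraries of 15 weeks lay between 497 and 586 CPM with overlapping groups. At 26 weeks the perisynaptic control libraries held 442, 186, 601 and 619 CPM and the SBMA libraries 252, 293, 492 and 443 CPM. The extrasynaptic control libraries held 445, 289, 568 and 584 CPM and the SBMA libraries 442, 434, 481 and 449.6 CPM. Control replicate 2 was the lowest library in both regions, and replicates 1 and 2 were below replicates 3 and 4 within each of these groups. The difference was not called in perisynaptic (-0.31 ± 0.28, adjusted p = 0.512) or extrasynaptic muscle (-0.06 ± 0.15, adjusted p = 0.784).

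The Scn4a result turned on control replicate 2. Without that mouse Scn4a was called lower in SBMA in both regions (-0.57, adjusted p = 0.049 in perisynaptic; -0.24, adjusted p = 0.0409 in extrasynaptic muscle). Among animals 95 to 98 it was called lower as well (-0.37, adjusted p = 0.0348; -0.31, adjusted p = 0.0201). Among animals 79 to 82 it was not, with -0.19 in perisynaptic and 0.25 in extrasynaptic muscle. Merged exons of Scn4a span 7041 bases. The 4 libraries of 26 weeks lowest in Scn4a (186, 252, 289 and 293 CPM) also had the 4 lowest long-transcript deviations. Each deviation is from the mean of the library's own group, so it does not rank levels across groups. Over the 30 libraries Scn4a and Kcnma1, whose merged exons span 16976 bases, had a Pearson r of 0.86, as a description only, since libraries share animals, depth and the level of long transcripts. The part of transcript length in these results was not tested.

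**Figure D2:**
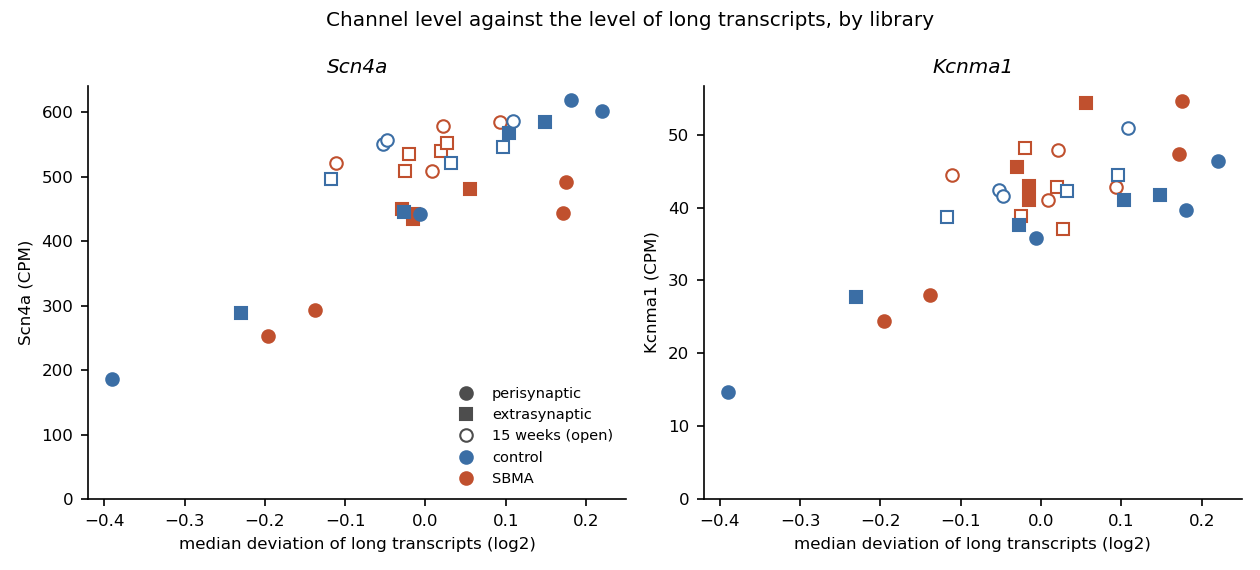
Scn4a (left) and Kcnma1 (right) in CPM (y axes, from 0) against the median log2 deviation of 730 long transcripts from their group mean (x axis) in the 30 libraries, with colour for genotype, shape for region and open symbols for 15 weeks. The lowest point of both panels is the perisynaptic library of control replicate 2 at 26 weeks, at 186 CPM of Scn4a and 14.7 CPM of Kcnma1.

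The calcium-activated channels were not called in any comparison. Kcnn3, the gene known for its rise after denervation, had group means between 18.4 and 25.3 CPM. At 26 weeks the extrasynaptic libraries held 21.7, 12.04, 24.3 and 18.2 CPM in control and 27.0, 21.9, 21.9 and 30.4 CPM in SBMA. These overlapped, and the difference was 0.41 ± 0.20 (adjusted p = 0.131), or 0.24 without control replicate 2. It was called only under total-count scaling (0.63, adjusted p = 0.016). In perisynaptic muscle the difference was 0.16 ± 0.29 (adjusted p = 0.758). In the same 26-week comparison 4 of the 5 denervation markers tested (of Chrng, Ncam1, Myh8, Myog, Gadd45a and Runx1) were called higher in extrasynaptic muscle, with a median log2 difference of 0.62, and 3 of 6 in perisynaptic muscle, with a median of 0.66. Of all genes, 16.1% were called higher in extrasynaptic and 8.04% in perisynaptic muscle.

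Kcnma1 stood closest to a call among the members that missed it. At 26 weeks the extrasynaptic libraries held 37.6, 27.7, 41.1 and 41.8 CPM in control and 41.1, 42.9, 54.3 and 45.6 CPM in SBMA, with a touch of overlap (0.31 ± 0.12, adjusted p = 0.0683). It was called with DESeq2 (0.32, adjusted p = 0.0486), with the runs of animal numbers as a block (0.32, adjusted p = 0.0265), under total-count scaling (0.53, adjusted p = 0.0011) and without control replicate 4 (0.37, adjusted p = 0.0438). Without control replicate 2 it was 0.20 (adjusted p = 0.178). In perisynaptic muscle the libraries held 35.8, 14.7, 46.4 and 39.7 CPM in control and 24.4, 28.0, 54.7 and 47.4 CPM in SBMA. They overlapped widely (0.19 ± 0.29, adjusted p = 0.719), and without control replicate 2 the difference was -0.06. At 15 weeks Kcnma1, Kcnn3, Kcnj2 and Scn4a differed by -0.05 to 0.17 in perisynaptic and by -0.05 to 0.03 in extrasynaptic muscle, with adjusted p of 0.947 or more.

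**Figure D3:**
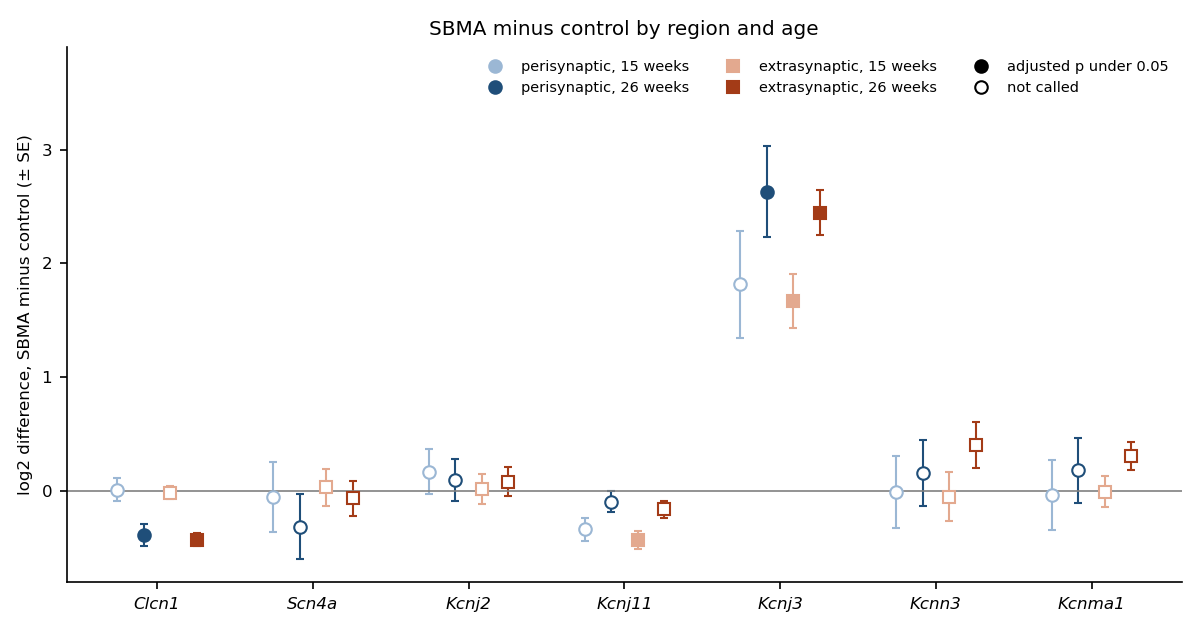
Log2 difference of SBMA minus control (y axis, ± SE of the edgeR fit) for each channel gene (x axis) in the 4 comparisons, with filled symbols for an adjusted p under 0.05. Kcnj3 stands between 1.67 and 2.63, Clcn1 is near 0 at 15 weeks and near -0.4 at 26 weeks, and Kcnj11 is called at 15 weeks in extrasynaptic muscle only.

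Counted over the 7 members, SBMA minus control gave no call in perisynaptic muscle at 15 weeks, where 0.21% of all 15735 genes were called by edgeR (0.127% higher, 0.0826% lower). In that comparison 2 members had an unadjusted p under 0.05 (Kcnj3 and Kcnj11) and DESeq2 called 1. In extrasynaptic muscle at 15 weeks 2 of 7 were called, Kcnj3 higher and Kcnj11 lower, against 1.22% of 15526 genes (0.554% higher, 0.67% lower). At 26 weeks Kcnj3 was called higher and Clcn1 lower in each region, 2 of 7 against 14.0% of genes in perisynaptic and 32.2% in extrasynaptic muscle. These are 8.04% higher and 5.97% lower in perisynaptic and 16.1% each way in extrasynaptic muscle. With a background of 32.2%, a count of 2 in 7 is not above the share of all genes. Median log2 differences of the 7 members were -0.01 and -0.004 at 15 weeks and 0.10 and 0.08 at 26 weeks, perisynaptic first. Over all genes they lay between -0.03 and -0.01. With total counts the 26-week counts became 1 higher and 0 lower in perisynaptic and 3 higher and 1 lower in extrasynaptic muscle.

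Between the ages, calls were made in SBMA muscle. From 15 to 26 weeks in SBMA mice Clcn1 fell by 28.1% in perisynaptic muscle (-0.48 ± 0.10, adjusted p = 0.011). It fell by 23.8% in extrasynaptic muscle (-0.39 ± 0.06, adjusted p = 0.0005), and all 14 alternatives kept both calls. With Kcnj3 this made 2 of 7 members called in each region, against 3.95% of genes in perisynaptic (2.35% higher, 1.6% lower) and 12.1% in extrasynaptic muscle (6.52% higher, 5.62% lower). In control mice 0 of 7 members and 0.0% of genes were called by edgeR in either region. At an unadjusted p under 0.05 there were 0 members in perisynaptic and 1 (Kcnj3) in extrasynaptic control muscle, and DESeq2 called none of the 7. Over all genes 891 and 1036 passed that unadjusted level, and DESeq2 called 36 and 54. The genotype by age test called 1 of 7 members (Clcn1) in extrasynaptic muscle, against 1.73% of genes (1.01% higher, 0.715% lower), and 0 of 7 in perisynaptic muscle, against 0.375% (0.241% higher, 0.133% lower).

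None of the 7 channels was called between the regions. By edgeR in the joint fit, 0 of 7 differed between perisynaptic and extrasynaptic muscle in control mice at 15 weeks (1.16% of 16138 genes called; 0.936% higher, 0.229% lower) and at 26 weeks (1.18%; 1.05% higher, 0.124% lower). The count was also 0 in SBMA mice at 15 weeks (0.948%; 0.905% higher, 0.0434% lower) and at 26 weeks (2.07%; 1.65% higher, 0.415% lower). The last background was unstable. Its 334 genes (267 higher, 67 lower) became 1594 (727 higher, 867 lower) without SBMA replicate 4, 147 and 151 without replicates 1 and 2, and 446 with DESeq2 (161 higher, 285 lower). The other 3 backgrounds fell from 188 to 59 and 88 genes without control replicates 1 and 3 (15 weeks), from 190 to 107 higher and 10 lower without control replicate 1 and to 99 in all without control replicate 2 (26 weeks) and from 153 to 76 without SBMA replicate 3 (15 weeks). In SBMA mice at 26 weeks 1 of the 7 members was called without SBMA replicate 3 and 1 without replicate 4. DESeq2 called none of the 7 in these 4 comparisons. Unadjusted p under 0.05 was reached by 0, 3, 1 and 3 members. Kcnj3 was lower in the perisynaptic piece in 13 of 15 mice, with a median of -0.63, and its differences in the 4 groups ran from -0.80 ± 0.28 to -0.52 ± 0.23 with adjusted p of 0.101 or more. Scn4a in SBMA mice at 26 weeks had -0.34 ± 0.12 (adjusted p = 0.126). The genotype by region test called 0 of 7 members at 15 weeks (0.0% of genes) and at 26 weeks (0.0124%; 0.0062% higher, 0.0062% lower), with no member under an unadjusted p of 0.05 and none called by DESeq2.

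Among the other genes of membrane excitability, 64 of the 77 listed were tested. In SBMA minus control at 26 weeks 11 were called higher and 24 lower in extrasynaptic muscle, where 16.1% of all genes were called in each direction. In perisynaptic muscle 6 were called higher and 13 lower, against 8.04% and 5.97% of genes. Total-count scaling changed these counts to 17 and 18, and to 14 and 9, with no called gene changing its direction. Without control replicate 2 they were 11 and 22, and 5 and 16. Among animals 79 to 82 they were 13 and 18, and 4 and 8, and among animals 95 to 98 they were 7 and 15, and 6 and 15. At 15 weeks edgeR called 3 lower in extrasynaptic muscle (with total counts 10 higher and 3 lower) and none in perisynaptic muscle, where 12 had an unadjusted p under 0.05 and DESeq2 called 2. Ano10 was among the 3 (-0.64 ± 0.10). Up to 4 genes each way were chosen for naming by a fixed rule (smallest p), and the other genes below are named after their values were seen. The counts of each list also take in genes that are not named.

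Of 6 sodium channel subunits tested, 4 were called lower in extrasynaptic muscle at 26 weeks and none higher. Scn4b, a beta subunit, went from 634 to 331 CPM (-0.94 ± 0.10, adjusted p = 7.6e-06). Scn3b (-0.81 ± 0.21) and Scn2b (-0.47 ± 0.17) were lower too, and both lost their calls within either run of animal numbers. The Scn2b call was also lost under total-count scaling, with DESeq2 and without control replicate 2. In perisynaptic muscle 2 of 6 were called, both lower, among them Scn4b (-0.93 ± 0.21). With total counts this became 1 higher and 1 lower.

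A further 7 genes were listed under chloride channels, and the listing does not show that each of them conducts chloride. Of these 7 genes, 4 were called lower in extrasynaptic muscle at 26 weeks and none higher. These were the anoctamins Ano10 (-0.74 ± 0.10), Ano5 (-0.64 ± 0.16) and Ano1 (-0.68 ± 0.23) and Lrrc8a, a subunit of the volume-regulated anion channel (-0.46 ± 0.14). In perisynaptic muscle 2 of 7 were called lower, Ano10 (-0.84 ± 0.09) and Lrrc8a (-0.60 ± 0.13). Of the 4 extrasynaptic calls, 1 was kept among animals 79 to 82 (Ano10) and 2 among animals 95 to 98 (Ano10 and Ano5). Ano1 and Lrrc8a also lost theirs under total-count scaling, which gave 2 higher and 2 lower. In perisynaptic muscle Lrrc8a lost its call among animals 79 to 82 and under total-count scaling.

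Partners of the inward rectifiers gave no call at 26 weeks with TMM scaling and all animals. In extrasynaptic muscle 1 was called higher under total-count scaling and 1 among animals 79 to 82. None of 5 tested (Kcnj12, Kcnj8, Kcnj15, Abcc8 and Abcc9) was called by edgeR or DESeq2 in either region, and 1 (Kcnj8) had an unadjusted p under 0.05, in extrasynaptic muscle. Abcc9, the sulphonylurea receptor SUR2 that joins Kir6.2 in muscle, stood at 285 CPM in control and 338 CPM in SBMA extrasynaptic libraries. Of 6 partners of the calcium-activated channels, Kcnn1 (-0.42 ± 0.07) and Kcnn4 (-0.999 ± 0.303) were called lower in extrasynaptic muscle and Kcnn1 alone in perisynaptic muscle (-0.40 ± 0.11). The Kcnn4 call was lost without control replicate 2, within either run of animal numbers and under total-count scaling, and the perisynaptic Kcnn1 call within either run and under total-count scaling.

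Voltage-gated and two-pore potassium channels moved in both directions. Of 20 tested in extrasynaptic muscle at 26 weeks, 3 were called higher and 9 lower. Kcnq1, a delayed rectifier best known from heart, rose from 1.46 to 4.68 CPM (1.67 ± 0.17, adjusted p = 4.9e-06). Kcna7, a muscle potassium channel, went from 106 to 44.4 CPM (-1.25 ± 0.10, adjusted p = 6.4e-07). Kcnc1 (-1.73 ± 0.23) and Kcnq5 (-1.14 ± 0.18) were lower too. In perisynaptic muscle 3 were called higher, among them Kcnq1 (1.83 ± 0.28), and 5 were called lower, among them Kcna7 (-1.12 ± 0.18) and Kcnc1 (-1.88 ± 0.33).

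The sodium-potassium pump, which restores the ion gradients after each action potential, differed by subunit. Of 9 genes tested in extrasynaptic muscle at 26 weeks, 3 were called higher and 4 lower. The beta subunit Atp1b1 went from 789 to 373 CPM (-1.08 ± 0.13, adjusted p = 2.5e-05). Atp1b2 (0.72 ± 0.14) and Atp1b4 (1.30 ± 0.35) were higher, and the regulators Fxyd1 (-0.52 ± 0.08) and Fxyd5 (-0.70 ± 0.15) lower. The Atp1b4 call was lost within either run of animal numbers and the Atp1b2 call among animals 79 to 82. In perisynaptic muscle 3 were called higher and 2 lower, with Atp1b1 at -1.05 ± 0.14.

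Of 11 channel anchors and splicing regulators, 5 were called higher and 1 lower in extrasynaptic muscle, and 0 higher and 1 lower in perisynaptic muscle. Celf1 (0.50 ± 0.08) and the kinase Wnk1 (0.60 ± 0.14) were higher in extrasynaptic muscle. Celf1 is a splicing regulator known for acting on Clcn1 transcripts in myotonic dystrophy, and gene counts do not show splicing. Ank3 (0.57 ± 0.14), Ank2 (0.40 ± 0.13) and Fgf13 (0.44 ± 0.12) completed the 5, and these 3 lost their calls among animals 95 to 98. With total counts the list gave 7 higher and 1 lower in extrasynaptic and 5 higher and 1 lower in perisynaptic muscle.

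**Figure D4:**
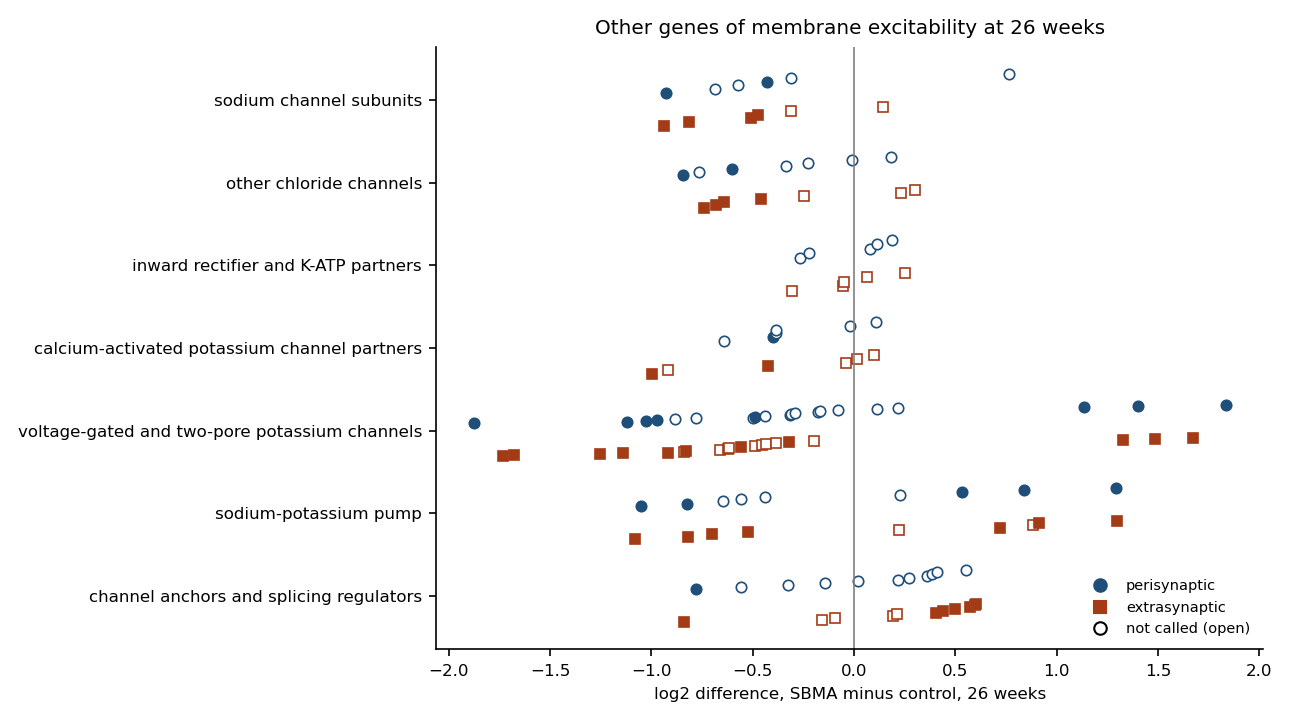
Log2 difference of SBMA minus control at 26 weeks (x axis) for each tested gene of the 7 lists (y axis), with circles for perisynaptic and squares for extrasynaptic muscle and filled symbols for called genes. Sodium channel subunits, the genes listed under chloride channels and partners of the calcium-activated channels have called genes on the lower side only. The voltage-gated and two-pore potassium channels and the pump have them on both sides, and partners of the inward rectifiers have none.

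Some of the listed channels were called between the regions. Kcna1 was higher in perisynaptic muscle in all 4 groups, by 1.48 ± 0.24 to 2.57 ± 0.27, and Kcna2 by 1.08 ± 0.22 to 1.68 ± 0.22. In control mice the Kcna2 call was lost in 2 of 9 alternatives at 15 weeks and in 4 of 10 at 26 weeks. Kcna1 and Kcna2 are known from myelinated axons. Schwann cell markers summed to 130 to 301 CPM in perisynaptic and 59.1 to 109.3 CPM in extrasynaptic libraries, and 6 of the 7 were called higher in perisynaptic muscle in each group. Of all genes, 0.905% to 1.65% were called higher in the 4 groups. The part of the Schwann cell markers in the region differences was not tested.

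Genes most like each member in log2 CPM over the 30 libraries, among 11913 with a mean of 2 CPM or more, were found as a description without a test. Clcn1 was most like Kcna7 (Pearson r 0.91), Klhl33 (0.90) and the fast myosin gene Myh2 (0.90). Kcnj3 was most like Bicd2 (0.95), Tecrl (0.95) and Ube2o (0.94). Scn4a was most like Rps6ka2 (0.97), Ubxn2a (0.97) and Fyco1 (0.97), and Kcnma1 like Dcaf7 (0.95), Nup160 (0.95) and Osbp (0.95). Kcnj2 came with Fam208b (0.86), Mex3c (0.86) and Acvr2a (0.85), Kcnn3 with Gpr146 (0.82) and Nr3c2 (0.82), and Kcnj11 with Pfkm (0.81) and Obsl1 (0.81). No member was among the 3 most similar genes of another.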

How the data were processed

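Diaphragm RNA was extracted with a miRNeasy kit with DNA digestion and made into libraries with a KAPA stranded mRNA kit, per the labels' protocols. The authors deposited raw read counts per gene, made with featureCounts on mm10, per the submitters' processing notes. Which aligner, gene annotation and strandedness option were used is not given in the sources used here. Without strand, reads of overlapping genes cannot be told apart.

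Identifiers were joined to GENCODE vM21 (GRCm38); 33064 of 33076 matched, and the other 12 held 0.00171% of the counts. Each region was fitted with 15 libraries, a mean per genotype and age and 11 residual degrees of freedom (15735 perisynaptic and 15526 extrasynaptic genes). Regions were compared in a fit of all 30 libraries with a term per animal (16138 genes), since library names tie the pieces of an animal; these pairs correlated after group means were removed (mean r 0.20 to 0.51, lowest 0.09). Filtering used filterByExpr (minimum count 10, minimum total 15), scaling used TMM, and tests used edgeR 4.0.16 in R 4.3.3, checked on simulated data. DESeq2 1.42.0, RLE factors, total counts, no filter, a replicate block, runs as a block, only the groups compared, no animal term and each animal left out were the alternatives; within-run fits were added after the data were seen. Replicates are separate animals. Reads carry no molecular identifiers. Errors are those between animals in the fits of each region, and those of the region difference within animals in the joint fit.

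The 7 members, the 7 lists of related genes and the 13 marker lists were chosen with earlier results of these data known. All members are named in every comparison. Of the listed genes, up to 4 each way with the smallest p are named, and for each member the 3 genes with the highest correlation; some genes these rules pick are not reported here.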

Additional observations from a re-analysis of the deposited data

Results flagged for a closer look

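In perisynaptic control muscle at 26 weeks, 1 of 4 libraries lay far below the others for 2 members, and it was replicate 2 each time. Kcnj2 was at 56.2 CPM there and at 94.8 to 98.2 CPM in the other 3, and Kcnn3 at 9.53 CPM against 23.2 to 24.4 CPM. Of 42 groups of 4 libraries examined, these 2 were picked out, and chance picks out about 1 in 20. Long transcripts were low in the same library (median log2 deviation -0.39). Its part in these values was not tested.

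In extrasynaptic muscle the SBMA minus control difference changed between 15 and 26 weeks by the test of the interaction for the following channel or pump genes. The change was -0.41 for Clcn1, -0.83 for Atp1b1, -0.82 for Kcna7 and 1.19 for Kcnq1, on the log2 scale. These calls were not equally firm. They were lost in 4 of 21 alternatives for Clcn1, 14 for Atp1b1, 1 for Kcna7 and 10 for Kcnq1. The 2 ages share no animals and no run of animal numbers, so age and run cannot be told apart here.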

How the results depend on the processing

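The rise of Kcnj3 at 26 weeks in both regions and the fall of Clcn1 in extrasynaptic muscle at 26 weeks kept their direction and their call under all 17 alternatives. With total counts alone the 26-week count of members called was 1 in perisynaptic and 4 in extrasynaptic muscle, and the extrasynaptic count at 15 weeks was 1; the share of called genes that were higher went from 57.4% to 91.7%, from 49.97% to 84.8% and from 45.3% to 95.4%. With no filter on low counts the counts were 1 (perisynaptic, 15 weeks), 1 (perisynaptic, 26 weeks), 0 (genotype by age, extrasynaptic), and for perisynaptic minus extrasynaptic 2 (control, 26 weeks), 1 (SBMA, 15 weeks) and 4 (SBMA, 26 weeks). DESeq2 gave 1 in perisynaptic muscle at 15 weeks. A fit of only the groups compared gave 1 in perisynaptic muscle at 26 weeks and 4 for the change with age in SBMA extrasynaptic muscle. Animals 79 to 82 alone gave 1 in perisynaptic muscle at 26 weeks. Leaving out each animal gave 1 to 3 members in perisynaptic and 2 to 3 in extrasynaptic muscle at 26 weeks, 1 to 2 in extrasynaptic muscle at 15 weeks and for the change with age in SBMA perisynaptic muscle, 0 to 1 for genotype by age in extrasynaptic muscle and 0 to 1 for the region difference in SBMA mice at 26 weeks. The cause was not tested.

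Signs turned for members in comparisons where they were not called. Clcn1 at 15 weeks went to -0.016 in perisynaptic muscle with runs as a block and, in extrasynaptic muscle, to 0.18 with total counts, 0.022 with no filter and 0.0042 with the replicate block. Leaving out an animal gave -0.032 to 0.039 and -0.052 to 0.012. At 26 weeks in perisynaptic muscle Kcnj11 went to 0.17 with total counts and 0.061 among animals 79 to 82, and Kcnn3 to -0.065 among animals 95 to 98. Leaving out an animal there gave -0.060 to 0.19 for Kcnj2, -0.067 to 0.27 for Kcnn3 and -0.063 to 0.37 for Kcnma1. In extrasynaptic muscle Scn4a went to 0.16 with total counts and 0.25 among animals 79 to 82, and leaving out an animal gave -0.24 to 0.056. Kcnj2 went to -0.016 among animals 95 to 98 and Kcnj11 to 0.053 with total counts. The fits within a run of animal numbers were chosen after seeing the data.

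The genotypes share replicate numbers, but labels do not say that these mark a litter or a day. Same-number pairs correlated above 0.1 in 3 of 4 cases in either region at 26 weeks (lowest 0.053 and 0.0047) and in none at 15 weeks, so the numbers were not taken as pairs. At 26 weeks 3 and 2 of the 4 correlated best with their own number. With a replicate block the members called were 0 in extrasynaptic muscle at 15 weeks (Kcnj3 1.57, adjusted p = 0.0512; Kcnj11 -0.42, adjusted p = 0.0848), 3 there at 26 weeks (with Kcnma1 at 0.32, adjusted p = 0.0303), 0 for genotype by age in extrasynaptic muscle and 1 for the change with age in SBMA perisynaptic muscle.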
